A study of Mus musculus with 6 samples.

Results

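p53 and 29 genes that it controls or that control it were followed in mouse CD8+ T cells, the killer cells of the immune system, that had been activated in culture and collected on day 2. The cells came from Nae1T-KO mice and from Nae1WT mice, with 3 libraries per genotype labelled as biological replicates. Nae1 is the gene for one subunit of the enzyme that activates NEDD8, and by its name Nae1T-KO is a knockout of it. The driver of the deletion, the deleted exons, the ages of the mice and whether each replicate was a separate mouse are not stated in the sources used here, so a p-value here speaks of the spread among these 6 libraries. The genes were chosen by symbol from a fixed list of p53, its regulators and its targets, without CDK inhibitor and BCL2 family genes. All 30 listed symbols were present among the 18288 gene symbols of the deposited data.

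p53 is a transcription factor that is made all the time and destroyed almost as fast, because the ubiquitin ligase MDM2, helped by its relative MDM4, marks it for the proteasome. DNA damage and other stresses break this cycle, and p53 then switches on genes that slow the cell cycle, repair DNA, adjust metabolism or start cell death. Mdm2 is itself such a gene, which closes a feedback loop. NEDD8 is a small protein related to ubiquitin whose attachment activates the cullin ubiquitin ligases, and MDM2 can also attach it to p53. In T cells p53 restrains proliferation after activation.

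Levels are given as normalized counts, the reads of a gene after division by the size factor of its library. The libraries held about 15600000 to 25400000 reads assigned to genes. Nae1 checks the labels: it had 390.3, 338 and 367 normalized counts across Nae1T-KO libraries, compared with 1601, 1806 and 1882 in the Nae1WT libraries (log2 fold change -2.27 with SE 0.09, limma adjusted p = 5.03e-07). The 9 CD8 T cell identity genes were all present, and they summed to 32371 to 33945 normalized counts in Nae1T-KO, compared with 34503 to 36133 in Nae1WT, without overlap. Singly they did not all fall. At a limma adjusted p under 0.05, 1 was higher and 1 lower (11.1% each, against 6.53% and 6.18% of all tested genes). The groups overlapped for 7 of the 9, Cd8a among them, where 33.7% of all tested genes did not overlap. Summed markers of other cell types were low beside the CD8 sum. The 10 B cell markers summed to 218 to 627 normalized counts in Nae1T-KO, compared with 247 to 370.0 in Nae1WT, and the 9 erythroid markers to 231 to 2107 in Nae1T-KO and 190.3 to 708 in Nae1WT, both highest in Nae1T-KO replicate 2. The 8 myeloid and dendritic markers summed to 135 to 216 in Nae1T-KO, compared with 62.7 to 84.7 in Nae1WT, and the 7 CD4 T cell markers to 582 to 929 in Nae1T-KO and 358 to 511 in Nae1WT, so that neither sum overlapped between the groups. The CD4 sum rested on the cytokine gene Il13: the other 6 markers summed to 261 to 374 in Nae1T-KO and 198 to 308 in Nae1WT, with overlap. The defining gene Cd4 did overlap, with 20.1, 118 and 72.7 normalized counts in Nae1T-KO, compared with 119, 20.9 and 42.6 in Nae1WT. For gamma-delta T cells and NK cells the sum of 4 markers was 18.5 to 35.3 in Nae1T-KO, compared with 23.0 to 32.0 in Nae1WT. The part of these cell types in the results was not tested. In bulk libraries a lower level in each cell and fewer cells that express a gene cannot be told apart. By Xist and the Y-linked genes, Nae1T-KO replicates 1 and 2 and Nae1WT replicate 3 came from females and the other 3 libraries from males. Each group therefore holds cells of more than 1 mouse, and results are also given between libraries of the same sex.

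The stretches of DNA around the starts of these genes are shown first, because p53 acts by binding there or nearby. RefSeq promoter windows of GRCm38.p6 (mm10), each 300 bases long from 250 before to 50 after an annotated start, were found for 23 of the 30 genes. They were searched for the consensus p53 decamer, a 10-base element of which 2 copies with a spacer of up to 13 bases make a full p53 site, and whose consensus is the same on either strand. It was present in 10 of the 32 windows (31.2%) and in windows of 9 of the 23 genes (39.1%), against 8.36% of all 32851 windows and 9.55% of all 27025 symbols. The 2 windows of Aen overlap and hold the same decamer. The genes were listed for their link to p53, so these shares describe the list and do not test it. Only exact matches were counted, so p53 sites with a mismatched base were not found this way. None of the 32 windows held 2 exact decamers close enough for a full site, as 0.0731% of all windows did. The 4 whole windows printed here belong to p53 itself, to its main ubiquitin ligase, to the gene of the set with the largest rise past the threshold and to the 1 gene that fell. Capitals mark the decamer.
Trp53, chr11:69580109-69580408, plus strand: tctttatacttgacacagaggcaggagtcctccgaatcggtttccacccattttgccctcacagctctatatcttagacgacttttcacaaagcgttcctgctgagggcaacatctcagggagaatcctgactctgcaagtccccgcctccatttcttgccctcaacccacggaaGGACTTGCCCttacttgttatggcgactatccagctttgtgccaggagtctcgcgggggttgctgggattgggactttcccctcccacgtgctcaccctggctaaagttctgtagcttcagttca
Mdm2, chr10:117710709-117711008, minus strand: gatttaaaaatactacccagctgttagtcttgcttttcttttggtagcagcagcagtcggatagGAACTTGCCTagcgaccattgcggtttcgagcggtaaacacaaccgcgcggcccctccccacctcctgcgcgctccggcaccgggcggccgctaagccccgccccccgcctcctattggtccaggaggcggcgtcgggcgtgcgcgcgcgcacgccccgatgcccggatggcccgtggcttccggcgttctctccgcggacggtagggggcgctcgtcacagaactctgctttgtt
Plk3, chr4:117133914-117134213, minus strand: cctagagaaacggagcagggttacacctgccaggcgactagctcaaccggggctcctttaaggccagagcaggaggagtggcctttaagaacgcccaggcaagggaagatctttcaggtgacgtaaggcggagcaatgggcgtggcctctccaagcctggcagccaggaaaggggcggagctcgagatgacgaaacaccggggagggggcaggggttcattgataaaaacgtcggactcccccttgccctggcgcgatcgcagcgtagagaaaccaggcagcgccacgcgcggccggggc
Fas, chr19:34290409-34290708, plus strand: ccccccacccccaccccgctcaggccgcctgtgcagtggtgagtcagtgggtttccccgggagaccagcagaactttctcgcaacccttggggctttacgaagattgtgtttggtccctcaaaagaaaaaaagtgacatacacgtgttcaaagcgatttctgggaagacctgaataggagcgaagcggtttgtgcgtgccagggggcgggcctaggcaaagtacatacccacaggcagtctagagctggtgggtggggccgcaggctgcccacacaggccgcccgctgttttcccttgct
The windows of Trp53 and Mdm2 each held 1 decamer, and those of Plk3, Btg2 and Fas held none. A match says only that these letters are in a window, and no match only that they are not. The only Mdm2 window lies around the most upstream start of its gene model, and the rest of that gene was not searched. Binding of p53 was not tested. Of the 7 genes that differed between the groups, 5 had a window and 2 of these held the decamer.

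Shorter stretches show how the decamer looked in genes whose transcripts did not pass the threshold, and in Cdkn1a, the p53 target that encodes the CDK inhibitor p21, which lies outside the set and is shown as a comparison. Each stretch has 25 bases on either side of a decamer, and the Cdkn1a stretch holds 2 decamers.
Ccng1, chr11:40755437-40755496, minus strand: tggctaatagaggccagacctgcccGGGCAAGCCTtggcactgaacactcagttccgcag
Aen, chr7:78895912-78895971, plus strand: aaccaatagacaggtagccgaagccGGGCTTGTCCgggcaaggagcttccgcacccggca
Ei24, chr9:36797310-36797369, minus strand: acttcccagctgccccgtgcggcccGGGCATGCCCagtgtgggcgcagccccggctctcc
Rps27l, chr9:66946281-66946340, plus strand: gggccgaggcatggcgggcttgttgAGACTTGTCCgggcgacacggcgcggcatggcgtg
Cdkn1a, chr17:29090903-29090962, plus strand: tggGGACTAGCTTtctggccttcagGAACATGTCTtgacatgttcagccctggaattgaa
Ppm1d, Polk and Sesn1 also held 1 decamer each in a window, and Rps27l held a second one in the same window, too far from the first for a full site.

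Of the 30 genes, 28 had enough reads to be tested (a normalized count of at least 10 in at least 3 libraries). In Nae1T-KO 6 were higher, 1 was lower and 21 did not pass the threshold (limma, adjusted p under 0.05 over all 13819 tested genes). The 6 were Plk3, Perp, Btg2, Tnfrsf10b, Trp53 and Mdm2, and the 1 was Fas. Among all tested genes 6.53% were higher and 6.18% lower, against 21.4% and 3.57% of these 28. Their median log2 fold change was 0.12, and that of all tested genes was -0.01. The 2 groups of libraries did not overlap for 9 of the 28 with Nae1T-KO higher and for 3 with Nae1T-KO lower, where 16.7% and 17% of all tested genes did so, 33.7% in either direction. With scaling to total counts, 1176 of 13857 tested genes were higher and 621 lower, where the deposited scaling gave 903 and 854, and 7 of these 28 were higher and 1 lower. Because the list was drawn up with earlier results of these data known, these counts describe the list and do not test it.

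**Figure D1:**
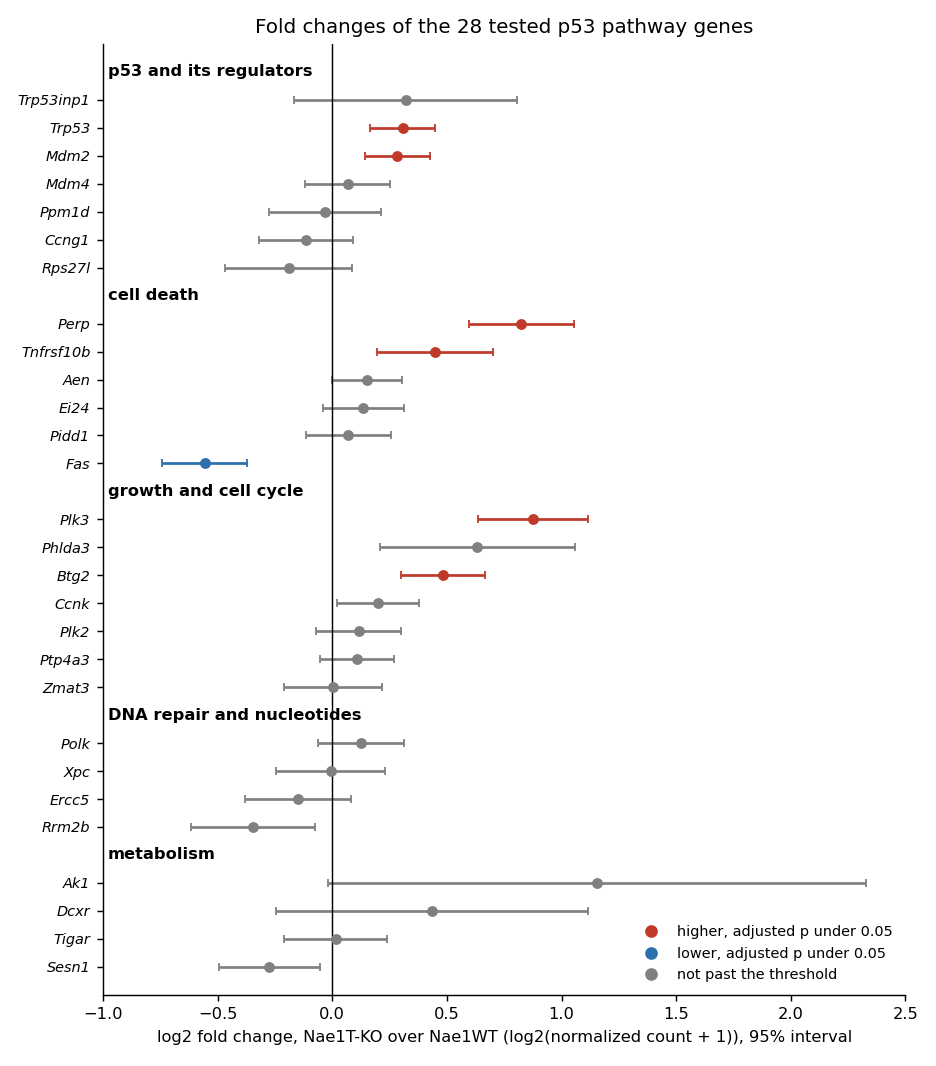
Log2 fold changes of the 28 tested genes, Nae1T-KO over Nae1WT, on the log2(normalized count + 1) scale (x axis), grouped by role (y axis), with 95% intervals from limma over 3 libraries per group. The 6 red points, Plk3, Perp, Btg2, Tnfrsf10b, Trp53 and Mdm2, lie right of 0, and the single blue point, Fas, lies at -0.56.

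The gene for p53 and that for its main ligase were both modestly higher in Nae1T-KO. Trp53 had 3122, 3138 and 3215 normalized counts across Nae1T-KO libraries, compared with 2680.4, 2452 and 2526 in the Nae1WT libraries. Every Nae1T-KO library lay above every Nae1WT library. The means were 3158 ± 49.9 in Nae1T-KO and 2553 ± 116 in Nae1WT (SD, n = 3 each), a 1.24-fold difference (log2 fold change 0.31 with SE 0.06, limma adjusted p = 0.0126). Mdm2, the ubiquitin ligase that destroys p53 and is also its target, had 2041, 2128 and 2001 normalized counts in Nae1T-KO, compared with 1699, 1721 and 1649.8 in Nae1WT. Again no library of one group reached the range of the other (1.22-fold, log2 fold change 0.28 with SE 0.06, limma adjusted p = 0.0181). The ratio of Mdm2 to Trp53 normalized counts within a library was 0.623 to 0.678 in Nae1T-KO, compared with 0.634 to 0.702 in Nae1WT, so the groups overlapped in the ratio of the 2 genes. Mdm4, the relative of Mdm2 that holds p53 inactive, had 3274, 3948 and 3385 normalized counts in Nae1T-KO, compared with 3557, 3168 and 3367 in Nae1WT. Its groups overlapped, and its log2 fold change of 0.07 had a 95% interval of -0.12 to 0.25 (limma adjusted p = 0.635). The adjusted p of Trp53 rose to 0.0658 without Nae1WT replicate 2 and to 0.0590 without Nae1WT replicate 3, with 0.00120 to 0.128 over the alternatives. That of Mdm2 rose to 0.0597 without Nae1T-KO replicate 2, to 0.0583 without Nae1WT replicate 2 and to 0.0824 without Nae1WT replicate 3, with 0.00496 to 0.247 over the alternatives.

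The other regulators of p53 in the set did not pass the threshold. Ppm1d encodes WIP1, a phosphatase that is induced by p53 and switches its signalling off again. It had 550.3, 559.6 and 681 normalized counts in Nae1T-KO, compared with 653, 632 and 543 in Nae1WT, with overlap and a log2 fold change of -0.03 (95% interval -0.28 to 0.21, limma adjusted p = 0.880). Ccng1, which encodes cyclin G1 and was the second most abundant gene of the set per kilobase of exon, had 4034 ± 291 normalized counts in Nae1T-KO, compared with 4379.9 ± 549 in Nae1WT (SD, n = 3 each). Rps27l, a ribosomal protein relative known in human cells as a p53 target that binds MDM2, was the most abundant per kilobase, with 6746 normalized counts per kilobase of exon in Nae1T-KO, compared with 7737 in Nae1WT. It too overlapped between the groups, with 4819 to 5989 normalized counts in Nae1T-KO, compared with 5263 to 7316 in Nae1WT. Trp53inp1, a stress-induced partner of p53, was the most variable of these, at 648, 1004 and 980.5 in Nae1T-KO, compared with 874, 651 and 574 in Nae1WT (limma adjusted p = 0.355). Of the 7 genes in this role, limma, edgeR, DESeq2 and limma-voom each called 2 higher and 0 lower, and none was lower at an unadjusted p under 0.05. Over all tested genes limma called 6.53% higher and 6.18% lower, and 29.1% had an unadjusted p under 0.05 in either direction.

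In cell death, the pair of death receptors moved in opposite directions. Of the 6 tested genes in this role limma called 2 higher and 1, Fas, lower, against 6.53% and 6.18% of all tested genes. The log2 fold change was above 0 for 5 of the 6, and Fas alone was below 0. Fas encodes the CD95 receptor, which ends the life of activated T cells when it meets its ligand. It had 426, 424 and 436 normalized counts in Nae1T-KO, compared with 663, 607 and 624 in Nae1WT. The Nae1T-KO libraries lay within a narrow band that was below every Nae1WT library. The means were 429 ± 6.57 in Nae1T-KO, compared with 632 ± 28.5 in Nae1WT (SD, n = 3 each), a level 1.47-fold lower in Nae1T-KO (log2 fold change -0.56 with SE 0.08, limma adjusted p = 0.00252). Fas passed in 18 of 19 alternatives, all but the replicate block by library number (limma adjusted p = 0.0850). Tnfrsf10b, the mouse receptor for the death ligand TRAIL, had 507, 587 and 557 normalized counts in Nae1T-KO, compared with 453, 415 and 347 in Nae1WT. It was higher in every Nae1T-KO library (1.36-fold, log2 fold change 0.45 with SE 0.11, limma adjusted p = 0.0289). Within a library Tnfrsf10b had 1.19 to 1.39 times the normalized count of Fas in Nae1T-KO, compared with 0.556 to 0.683 times in Nae1WT, with no overlap. With Tnfrsf10b higher and Fas lower in every Nae1T-KO library, the ratio could not overlap and is no separate result. It was not tested. The call for Tnfrsf10b was the least stable of the 7: its adjusted p was 0.0940 or 0.0547 when Nae1T-KO replicate 2 or 3 was left out, and 0.0690 or 0.104 when Nae1WT replicate 2 or 3 was, with 0.00910 to 0.145 over the alternatives. One stretch of 405 bases of its transcript matched a transcript of the gene model Gm15574 with 97.5% identity in GENCODE M21, so some of its reads may be shared. Stretches of 151 to 164 bases matched Senp1, Tcirg1 and Usp6nl, which are in the deposited data, while Gm15574 is not.

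Perp, a membrane protein gene that p53 turns on during apoptosis, was among the clearest differences of the set. It had 608, 529 and 506 normalized counts in Nae1T-KO, compared with 323, 315 and 287 in Nae1WT. The lowest Nae1T-KO library was well above the highest Nae1WT library, and the means were 548 ± 53.8 in Nae1T-KO and 308 ± 18.8 in Nae1WT (SD, n = 3 each), 1.78-fold higher (log2 fold change 0.82 with SE 0.10, limma adjusted p = 0.00116). It passed in all 19 alternatives. Eda2r, a TNF receptor family gene and p53 target, had only 9 to 15 reads in each Nae1T-KO library, compared with 3 to 6 in each Nae1WT library, and it was not tested. Its normalized counts were 16.8, 11.5 and 9.09 in Nae1T-KO, compared with 4.91, 6.27 and 2.28 in Nae1WT, without overlap.

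Pidd1, which encodes the sensor of the PIDDosome and takes its name from p53, had 665, 677 and 761 normalized counts in Nae1T-KO, compared with 659, 692 and 649 in Nae1WT (log2 fold change 0.07, 95% interval -0.12 to 0.26, limma adjusted p = 0.625). Its groups overlapped. Aen, an apoptosis-enhancing nuclease, had 1736, 1891 and 1921 normalized counts in Nae1T-KO, compared with 1615, 1714 and 1658 in Nae1WT, without overlap but without passing the threshold (limma adjusted p = 0.174). Ei24, a gene of the endoplasmic reticulum with roles in death and autophagy, had 1087 ± 65.1 in Nae1T-KO and 989 ± 60.2 in Nae1WT (SD, n = 3 each), with overlap (limma adjusted p = 0.289).

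**Figure D2:**
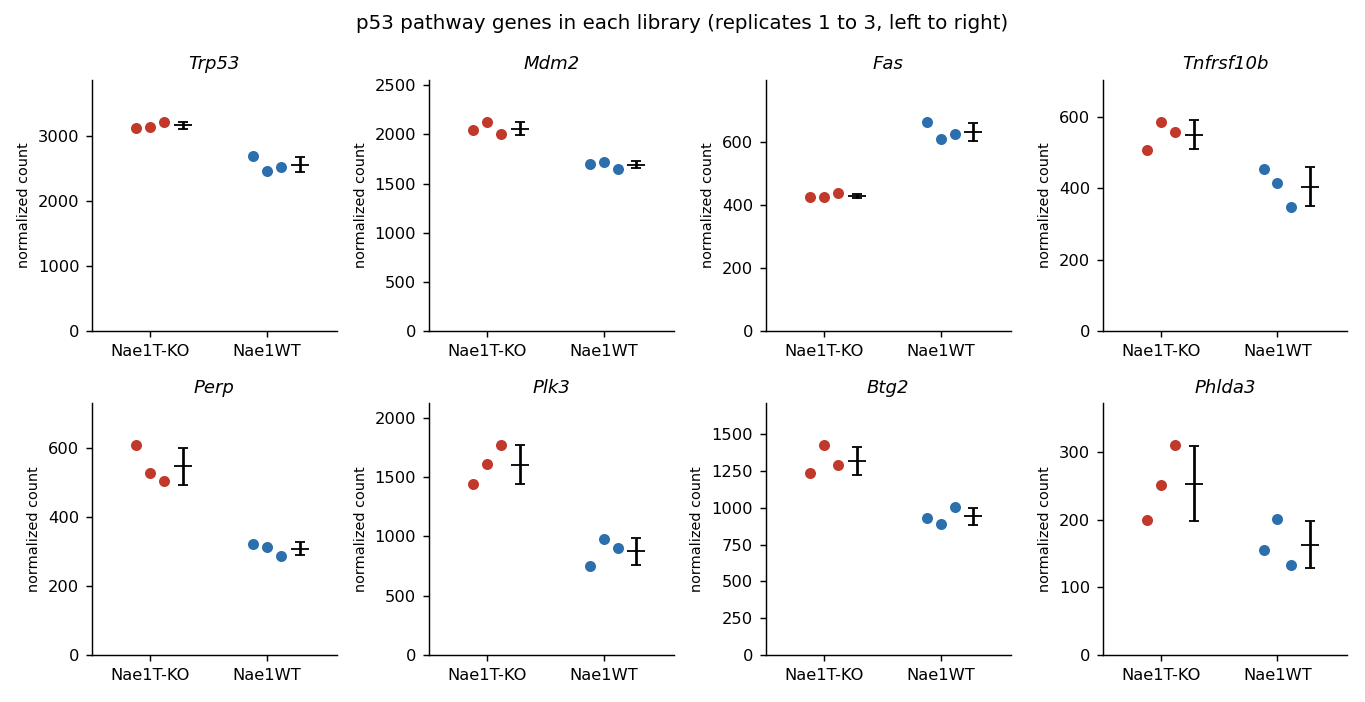
Normalized counts (y axis, from 0) of 8 genes in each of the 3 Nae1T-KO libraries (red) and 3 Nae1WT libraries (blue), with the mean and SD of each group in black. The groups do not overlap for 7 of the 8, and for Phlda3 Nae1T-KO replicate 1, at 199, lies just below Nae1WT replicate 2, at 201.

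Among genes that slow growth, the polo-like kinase Plk3 and the antiproliferative factor Btg2 were higher in Nae1T-KO. Plk3 encodes a stress-responsive kinase that can phosphorylate p53. It had 1438, 1608 and 1767 normalized counts in Nae1T-KO, compared with 751, 973 and 901 in Nae1WT. All 3 Nae1T-KO libraries exceeded all 3 Nae1WT libraries, with means of 1605 ± 164 in Nae1T-KO and 875 ± 113 in Nae1WT (SD, n = 3 each). At 1.83-fold (log2 fold change 0.88 with SE 0.11, limma adjusted p = 0.00114) this was the largest difference of the set past the threshold, and it passed in all 19 alternatives. Its exons share 84 bases with Tctex1d4 on the opposite strand, 3.32% of its length. Plk2, its relative and also a p53 target, had 1282, 1373 and 1256 normalized counts in Nae1T-KO, compared with 1254, 1281 and 1083 in Nae1WT. These overlapped (log2 fold change 0.12, 95% interval -0.07 to 0.30, limma adjusted p = 0.395), and the ratio of Plk3 to Plk2 normalized counts within a library was 1.12 to 1.41 in Nae1T-KO, compared with 0.599 to 0.831 in Nae1WT.

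Btg2, an early p53 target that restrains proliferation and keeps T cells quiescent together with Btg1, had 1236, 1426 and 1294 normalized counts in Nae1T-KO, compared with 933, 888 and 1006 in Nae1WT. Every Nae1T-KO library was above every Nae1WT library (1.40-fold, log2 fold change 0.48 with SE 0.08, limma adjusted p = 0.00501). Btg2 passed in 18 of 19 alternatives, all but the replicate block by library number (limma adjusted p = 0.0922). Phlda3, which encodes an inhibitor of the kinase AKT, had 199, 251 and 310.0 normalized counts in Nae1T-KO, compared with 155, 201 and 133 in Nae1WT. Its groups met at the edge, and it stayed short of the threshold (log2 fold change 0.63 with SE 0.19, limma adjusted p = 0.0563). It passed in 6 of 19 alternatives: with total-count scaling, without Nae1T-KO replicate 1 (0.0344) or Nae1WT replicate 2 (0.0400), in DESeq2, in limma-voom and with sex as a covariate (0.0128), with adjusted p of 0.0128 to 0.395 over the alternatives.

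The remaining genes of growth control did not pass. Ccnk, which encodes cyclin K, the partner of the transcription kinases CDK12 and CDK13, had 1446, 1365 and 1216 normalized counts in Nae1T-KO, compared with 1116, 1193 and 1191 in Nae1WT (limma adjusted p = 0.133, and 0.0416 without Nae1T-KO replicate 3, with 0.0416 to 0.557 over the alternatives). Its groups did not overlap. Ptp4a3, a phosphatase gene, had 1638 ± 120.5 in Nae1T-KO, compared with 1517 ± 32.4 in Nae1WT, and Zmat3, a zinc finger gene whose product binds RNA, had 518 ± 42.1 in Nae1T-KO and 517 ± 34.7 in Nae1WT (SD, n = 3 each). Gdf15, a secreted stress signal, was near the limit of detection, with 4.47, 1.76 and 6.06 normalized counts in Nae1T-KO, compared with 2.46, 1.05 and 0.761 in Nae1WT. These rest on 2 to 6 reads in each Nae1T-KO library, compared with 1 to 2 in each Nae1WT library, and Gdf15 was not tested. Of the 7 tested genes in this role limma called 2 higher and 0 lower, and none was lower at an unadjusted p under 0.05. By edgeR 2 were higher, by DESeq2 and limma-voom 3 were, and by each of these 0 were lower. Over all tested genes limma called 6.53% higher and 6.18% lower, and 29.1% had an unadjusted p under 0.05 in either direction.

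DNA repair genes of the set showed no difference past the threshold, and neither did the metabolic genes. Limma, edgeR, DESeq2 and limma-voom each called 0 of the 4 repair and nucleotide genes, where limma called 12.7% of all tested genes. Against 29.1% of all tested genes, limma gave 1 of the 4 an unadjusted p under 0.05. That 1 was Rrm2b, the p53-induced subunit of ribonucleotide reductase, which makes DNA building blocks outside S phase. It had 247, 301 and 281 normalized counts in Nae1T-KO, compared with 309, 388 and 358 in Nae1WT. The groups did not overlap, with Nae1T-KO lower (log2 fold change -0.35, 95% interval -0.62 to -0.08, limma adjusted p = 0.0871, and 0.0626 to 0.273 over the alternatives). Its exons share 734 bases with the antisense gene Gm49085, 8.04% of its length. A stretch of 1051 bases of the Rrm2b transcript matched the gene model Gm8616 with 96.1% identity, so some of its reads may be shared. Polk, a translesion DNA polymerase, had 558, 536 and 573 normalized counts in Nae1T-KO, compared with 533, 516 and 480.4 in Nae1WT (limma adjusted p = 0.368). Xpc and Ercc5, which recognise damage and cut the damaged strand in nucleotide excision repair, overlapped between the groups, with Xpc at 287 ± 18.2 in Nae1T-KO and 288 ± 19.3 in Nae1WT, and Ercc5 at 462 ± 47.3 in Nae1T-KO and 511 ± 34.7 in Nae1WT (SD, n = 3 each).

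Of the 4 metabolic genes, each of the 4 tools called 0, where limma called 12.7% of all tested genes. Against 29.1% of all tested genes, limma gave 1 of the 4 an unadjusted p under 0.05. That was Sesn1, a sestrin that restrains mTORC1, with 498, 535 and 471 normalized counts in Nae1T-KO, compared with 649.5, 636 and 537 in Nae1WT. The Nae1T-KO libraries were all lower, the closest by a small margin (log2 fold change -0.27, 95% interval -0.50 to -0.05, limma adjusted p = 0.0992). Tigar, a phosphatase that diverts sugar from glycolysis, had 698, 718 and 595 in Nae1T-KO, compared with 634, 622 and 733 in Nae1WT, with overlap. Dcxr, a carbonyl reductase gene, had 35.2 ± 6.60 in Nae1T-KO and 26.4 ± 8.93 in Nae1WT (SD, n = 3 each), with overlap. Ak1, which encodes an adenylate kinase, had 8.95, 15.9 and 27.3 normalized counts in Nae1T-KO, compared with 11.1, 3.14 and 7.61 in Nae1WT. Its log2 fold change of 1.15 was the largest among the 28 tested genes, but it rested on 8 to 27 reads in each Nae1T-KO library, compared with 3 to 10 in each Nae1WT library, its groups overlapped and its 95% interval ran from -0.02 to 2.33 (limma adjusted p = 0.177).

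Between the 4 pairs of libraries of the same sex, all 6 genes called higher were higher in each Nae1T-KO library and Fas was lower in each. Because the groups did not overlap for any of these 7 genes, this had to be so and is no separate check. The log2 difference over these pairs was 0.67 to 1.23 for Plk3, 0.65 to 1.08 for Perp, 0.30 to 0.54 for Btg2, 0.30 to 0.76 for Tnfrsf10b, 0.26 to 0.39 for Trp53, 0.22 to 0.37 for Mdm2 and -0.60 to -0.48 for Fas. With sex as a covariate all 7 passed again.

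**Figure D3:**
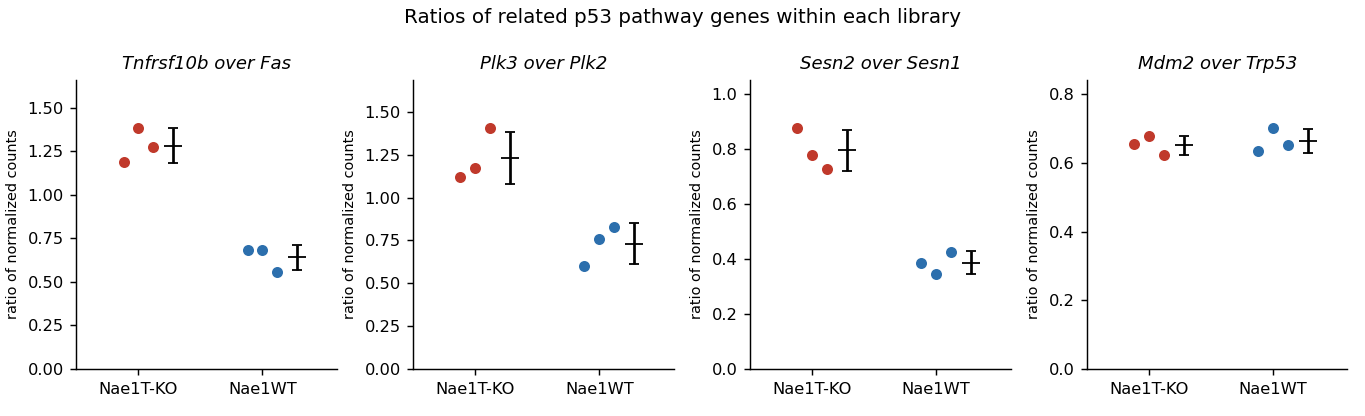
Ratio of the normalized counts of 2 related genes within each library (y axis, from 0, not corrected for gene length) for the 3 Nae1T-KO libraries (red) and 3 Nae1WT libraries (blue), with mean and SD in black. Tnfrsf10b over Fas, Plk3 over Plk2 and Sesn2 over Sesn1 do not overlap between the groups, and Mdm2 over Trp53 does. For Tnfrsf10b over Fas and Sesn2 over Sesn1 this follows from the levels of the single genes, which lie apart in opposite directions.

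Beyond these 30 genes, further p53 targets were mostly higher or not past the threshold. Of 50 listed targets, CDK inhibitor and BCL2 family genes included, 46 were tested, 20 were higher, 0 lower and 26 did not pass, with a median log2 fold change of 0.31. None was lower by edgeR, DESeq2 or limma-voom either, and 1 was lower by limma at an unadjusted p under 0.05. In either direction, 29.1% of all tested genes had such a limma p. The 20 are 43.5% of the tested targets, against 6.53% of all tested genes. Cdkn1a had 1472, 1421 and 1489 normalized counts in Nae1T-KO, compared with 722, 862 and 856 in Nae1WT, a 1.80-fold difference (log2 fold change 0.85 with SE 0.08, limma adjusted p = 0.000425). The largest rises were in genes of low level. Gadd45a, a growth arrest and DNA damage gene, had 63.8, 41.4 and 36.4 normalized counts in Nae1T-KO, compared with 16.0, 9.41 and 11.4 in Nae1WT (log2 fold change 1.85, limma adjusted p = 0.00561). The zinc finger gene Zfp385a had 48.1 ± 13.9 in Nae1T-KO and 13.3 ± 2.40 in Nae1WT, and the ephrin receptor gene Epha2 had 69.1 ± 19.2 in Nae1T-KO and 19.9 ± 4.54 in Nae1WT (SD, n = 3 each). Casp6, which encodes an executioner caspase, had 976, 622 and 658 normalized counts in Nae1T-KO, compared with 229.6, 277 and 391 in Nae1WT (log2 fold change 1.33, limma adjusted p = 0.0101, but 0.0646 without Nae1WT replicate 2, with 3.16e-09 to 0.123 over the alternatives). Sesn2, a relative of Sesn1 that was named after its values were seen, had 436, 417 and 342 normalized counts in Nae1T-KO, compared with 250.5, 218 and 229 in Nae1WT (log2 fold change 0.77, limma adjusted p = 0.00330). The ratio of Sesn2 to Sesn1 normalized counts was 0.728 to 0.876 in Nae1T-KO, compared with 0.344 to 0.427 in Nae1WT. With Sesn2 higher and Sesn1 lower in every Nae1T-KO library, these ranges had to lie apart.

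Genes that act on p53 from upstream were called in both directions. Of 44 listed kinases, ligases, acetyltransferases and partners, 42 were tested, 4 were higher, 5 lower and 33 did not pass, with a median log2 fold change of 0.04. These are 9.52% higher and 11.9% lower, against 6.53% and 6.18% of all tested genes. Atr, a damage-sensing kinase gene, had 1338, 1466 and 1132 normalized counts in Nae1T-KO, compared with 1968, 1888 and 1770.1 in Nae1WT (log2 fold change -0.52, limma adjusted p = 0.00700). Chek1, the checkpoint kinase downstream of it, had 1126 ± 108 in Nae1T-KO, compared with 1571 ± 20.4 in Nae1WT (SD, n = 3 each; log2 fold change -0.48). Atm had 1983 ± 310.3 in Nae1T-KO and 2762 ± 300.4 in Nae1WT, and Prkdc, the DNA-dependent protein kinase gene, had 769.7 ± 127 in Nae1T-KO and 1014 ± 83.2 in Nae1WT (SD, n = 3 each; log2 fold changes -0.48 and -0.41). Among the 4 higher genes, Nqo1, a quinone reductase that binds p53 and is best known as a target of the antioxidant factor NRF2, had 167, 165 and 187 normalized counts in Nae1T-KO, compared with 14.7, 26.1 and 21.3 in Nae1WT (log2 fold change 3.03, limma adjusted p = 0.000105). Ppp1r13l, which encodes iASPP, an inhibitor of p53, had a log2 fold change of 0.80, Daxx, a partner of MDM2, 0.29 and Kmt5a, which methylates p53, 0.25. The fifth lower gene was Ppp2r5c, which encodes a regulatory subunit of the phosphatase PP2A (log2 fold change -0.29, limma adjusted p = 0.0139, but 0.0615 without Nae1WT replicate 2, with 0.00187 to 0.248 over the alternatives). The checkpoint kinase gene Chek2, on the same list, did not pass (log2 fold change 0.02, limma adjusted p = 0.929). Ppp2r5c and Chek2 were named after their values were seen. The calls for Atm, Prkdc, Ppp1r13l, Daxx and Kmt5a were each lost on leaving out single libraries, with adjusted p of up to 0.0674, 0.125, 0.0856, 0.257 and 0.271 over the alternatives, and those for Atm and Prkdc also with total-count scaling (0.0589 and 0.0986). Among single libraries left out, Nae1T-KO replicate 1 or 3 or Nae1WT replicate 1 or 3 ended the call for Atm, and any but Nae1T-KO replicate 2 that for Prkdc. Nae1T-KO replicate 2 or Nae1WT replicate 2 or 3 ended that for Daxx, these or Nae1T-KO replicate 1 that for Ppp1r13l, and any but Nae1T-KO replicate 3 that for Kmt5a. With each library left out in turn, 1 to 5 genes of this list were higher and 3 to 5 lower.

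**Figure D4:**
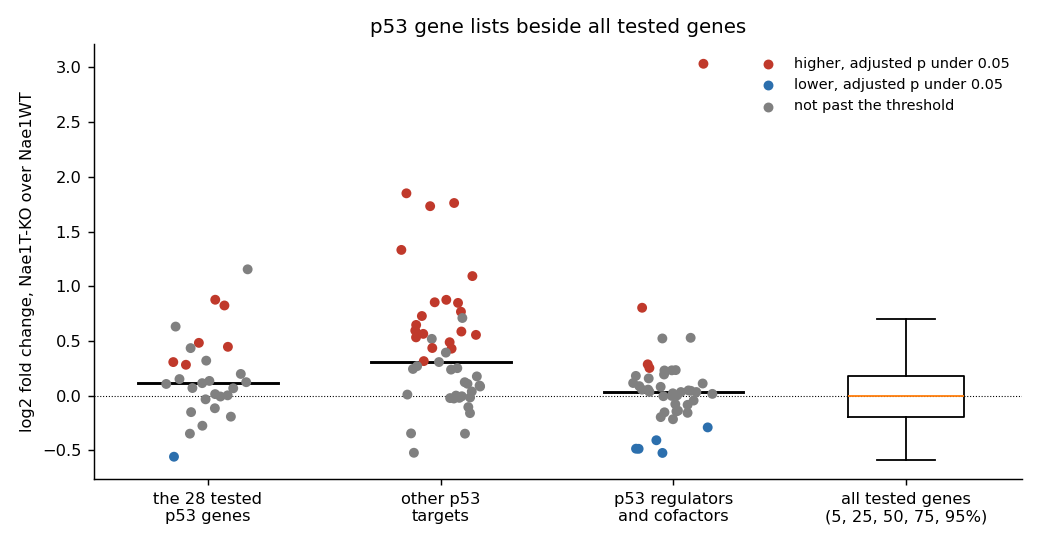
Log2 fold changes, Nae1T-KO over Nae1WT (y axis), of the 28 tested p53 genes, 46 other p53 targets and 42 p53 regulators and cofactors (points, with the list median as a bar), beside a box of all 13819 tested genes (whiskers at 5% and 95%). Red points passed as higher and blue points as lower, and the medians are 0.12, 0.31 and 0.04 against -0.01 for all tested genes.

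Settings that changed the processing but kept all libraries, other than the replicate blocks, left all 7 calls in place, and the calls for Plk3 and Perp held in every setting tried. The plot of adjusted p shows which genes crossed the threshold.

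**Figure D5:**
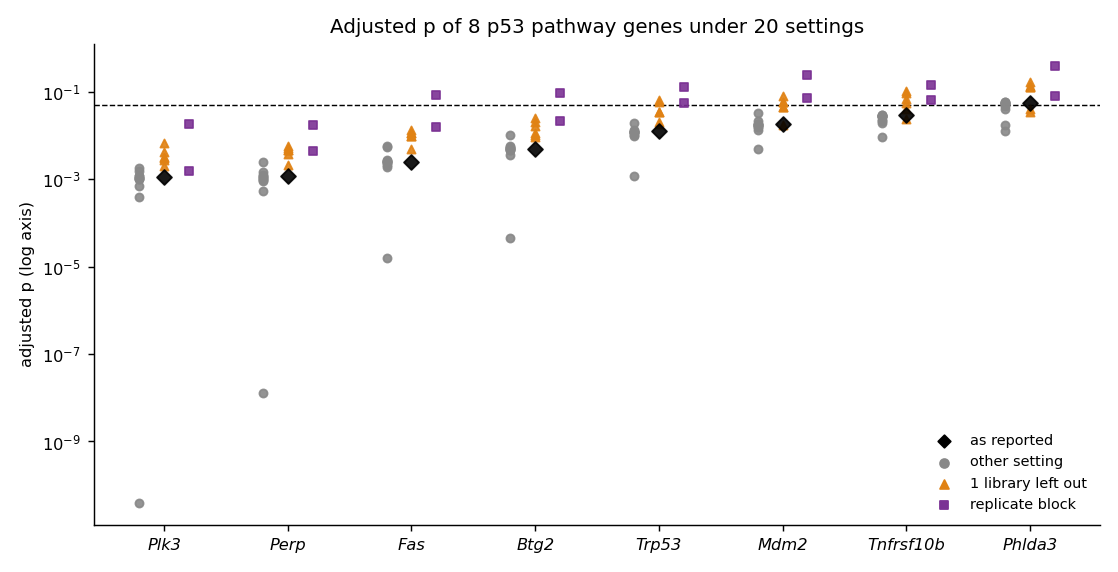
Adjusted p (y axis, log scale, dashed line at 0.05) of 8 genes as reported and under 19 alternatives, marked by kind. Plk3 and Perp stay under the line throughout, while Trp53, Mdm2 and Tnfrsf10b rise above it when some libraries are left out or a replicate block is added. Fas and Btg2 rise above it only with the replicate block by library number.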

How the data were processed

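Messenger RNA of CD8+ T cells was captured on poly-T beads and copied with random hexamers, per the labels' protocols. The authors deposited 1 signal per gene and library, a read count divided by 1 size factor per library; the submitters' processing notes name bcl2fastq, HISAT2, DESeq2 1.42.0 and mm10, while the counter, annotation and use of strand are not stated in the sources used here. Every deposited value was a whole multiple of 1 step (tolerance 0.001 of a read, 100% of values); for Nae1T-KO replicate 3 this is less certain, because its step is close to 1. The 95% intervals are limma's and rest on the spread among libraries. Genes with a normalized count of at least 10 in at least 3 libraries were tested two-sided by limma 3.58.1 (R 4.3.3) after a log2(normalized count + 1) transform (trend, robust, group alone; Benjamini-Hochberg over all tested genes). This log2 scale understates changes of low genes. The 30 genes and all lists were chosen with earlier results of these data known. Values in every library are given for the called genes of the 30 and for Trp53, Mdm2, Mdm4, Ppm1d, Pidd1 and Gdf15. They are also given, by no fixed rule, for other genes of the 30 where a sentence used them. Of each further p53 list at most 4 called genes per direction are named, with Cdkn1a. Genes of those lists named outside this rule are marked as such, and Il13 among the CD4 markers was also named outside it. Gene models, exon lengths and overlaps came from GENCODE M21 (GRCm38), promoter sequences from RefSeq (GRCm38.p6). Of the 30 genes, 4 share exon bases with another gene model and 2 have stretches of at least 150 bases at 95% identity or more in another transcript. Alternatives were 3 scalings, 2 filters, pseudocounts of 0.5 and 5, each library left out, 2 replicate blocks, limma-voom, edgeR 4.0.16 and DESeq2 1.42.0 run on recovered reads, and sex as a covariate. The fits were tested on simulated data, with changes all larger than those of Mdm2, Trp53, Tnfrsf10b, Btg2 and Fas. That test does not cover changes as small as theirs.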

Additional observations from a re-analysis of the deposited data

How the results depend on the processing

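Across 3 scalings, 2 filters, 2 pseudocounts, 3 count tools and sex as a covariate, the 7 calls among the p53 genes were made again. Leaving out 1 library gave 3 to 7 higher and 1 lower among these genes, with 3 higher without Nae1WT replicate 3, and 842 to 1767 calls over all tested genes, with 1017 when Nae1T-KO replicate 2 was left out and 842 or 954 when Nae1WT replicate 2 or 3 was. Among other p53 targets 15 to 19 were then higher, and among p53 regulators 1 to 5 higher and 3 to 5 lower. With total-count scaling 3 regulators were lower. Same-numbered libraries did not deviate together (correlations of -0.266 to -0.130 by title number, and no number was the best match of its own pair). Every same-numbered pair joined a female and a male library, so this check cannot tell whether the numbers pair samples. The replicate block by title number gave 3 p53 genes higher, 2 regulators higher and 3 lower, and 968 calls in all. The replicate block by library number, on 4 libraries, gave 2 p53 genes higher and 0 lower, 9 other targets higher, 1 regulator higher and 2 lower, and 314 calls in all; it has fewer samples. The cause of the other changes was not tested. Signs changed only for genes near 0 on the log2 scale: Mdm4 was -0.01374 without Nae1T-KO replicate 2, and up to 0.1213 over the libraries left out. Zmat3 was -0.06166 or -0.05088 when Nae1T-KO replicate 2 or Nae1WT replicate 3 was left out (highest 0.04484) and -0.02197 with the replicate block by library number. Xpc was 0.04014 with total-count scaling, 0.01111 or 0.02595 without Nae1T-KO replicate 2 or 3, 0.04202 without Nae1WT replicate 1 (lowest -0.05804), and 0.06013 with that replicate block. Tigar was -0.01646 or -0.03714 without Nae1T-KO replicate 1 or 2, -0.01559 or -0.02888 without Nae1WT replicate 1 or 2 (highest 0.09872), -0.06777 with that replicate block and -0.06407 with sex as a covariate. Ppm1d was 0.0147 with total-count scaling, 0.02254 or 0.01043 without Nae1T-KO replicate 1 or 2, 0.01967 without Nae1WT replicate 1, 0.06262 with that replicate block and 0.05704 with sex as a covariate. Gdf15 and Eda2r had too few reads to test.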

Other observations

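Cell cycle genes that p53 is known to lower through p21 and the DREAM repressor complex did not fall together. Of 30 tested, 4 were higher in Nae1T-KO, 2 lower and 24 not past the threshold (limma, adjusted p under 0.05), with a median log2 fold change of 0.04. These are 13.3% higher and 6.67% lower, against 6.53% and 6.18% of all tested genes, so the lower share is near the background. The 4 were the mitotic genes Ube2c, at 2814 ± 175 normalized counts in Nae1T-KO, against 1836 ± 101 in Nae1WT (SD, n = 3 each), Kif23 at a log2 fold change of 0.38, Plk1 at 0.34 and Cdc20 at 0.27. The call for Cdc20 held in 11 of 19 alternatives and was lost when any single library except Nae1T-KO replicate 3 was left out (limma adjusted p of 0.0651 to 0.107, with 0.0128 to 0.274 over all alternatives). That for Plk1 held in 15 of 19 and was lost without Nae1T-KO replicate 1 (0.0521) or Nae1WT replicate 2 (0.0566), with 0.00164 to 0.190 over all alternatives. The 2 were Chek1 at -0.48, also counted among the p53 regulators, and the replication helicase gene Mcm5 at -0.39. The choice of these 6 to name was made with their values in view.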
